A study of Homo sapiens with 9 samples.

Results

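The genes described here are 41 genes of homologous recombination and of the Fanconi anemia pathway, chosen by name out of the 60603 genes of the count table, and every one of the 41 names was found in the table. They were followed in bulk RNA-seq of TC32, a line of Ewing sarcoma cells in which EWSR1 is fused to FLI1 (EWS::FLI1). All 9 libraries came from polyA RNA of cells grown in serum with L-glutamine, carry the genotype label WT and the same batch number, and were collected at 30 h. Cells of the siEF group were treated with an siRNA that spans the breakpoint of the fusion, those of siNEG with a nonspecific siRNA and those of Media, by their label, with none, and each group had 3 biological replicates. The results hold for this 1 cell line, and the methods give no further detail on the siNEG and Media cultures.

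Homologous recombination repairs a broken DNA molecule by copying the intact sister chromatid, and it is therefore used mainly in S phase and G2. Kinases and adaptors sense the break, nucleases resect its ends, BRCA proteins load a recombinase on the exposed strand, and translocases and helicases carry the strand exchange through. The Fanconi pathway removes crosslinks between DNA strands: a core complex with ubiquitin ligase activity marks the FANCD2-FANCI pair, which recruits nucleases, and the break that results is passed to homologous recombination. Several members are also known in the clinic, since inherited loss of BRCA1 or BRCA2 makes tumors sensitive to PARP inhibitors. Ewing sarcoma cells are themselves known to be sensitive to these drugs in culture.

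Silencing was checked first. FLI1 stood at 38.4, 35.5 and 39.3 CPM (counts scaled for depth, with library sizes set by the TMM method) in siEF, against 48.6, 48.5 and 48.0 in siNEG. Reads of the fusion and of any intact FLI1 would be counted together in this gene, and the paper states that these cells do not express FLI1 itself. The siEF values of FLI1 were all below its siNEG values (log2 fold change -0.35, SE 0.06, adjusted P = 2.88e-05 by the quasi-likelihood test of edgeR). The methods report silencing by qPCR as a 3-cycle change in expression, which was not compared with these counts. EWSR1, the 5′ partner, changed by -0.23 on the log2 scale (SE 0.04, adjusted P = 0.000121). NR0B1, which the fusion induces, had a log2 fold change of -2.97, and PHLDA1, which it represses, one of 5.23. The libraries held between 20727706 and 33134581 expected counts, and the 10 most abundant genes took 12.3% to 12.9% of the counts in siEF against 5.78% to 6.62% elsewhere. Of the cell type markers, the 6 Ewing sarcoma genes summed to 381 to 391 CPM in siEF, 747 to 761 in siNEG and 869 to 909 in Media. Of these 6, CD99 was higher in siEF than in siNEG (189 and 161 CPM on average, log2 fold change 0.23, adjusted P = 0.00123 by edgeR's test). The fall of the sum came from the others, NKX2-2, NR0B1, PRKCB, STEAP1 and LIPI, which were each lower. The 3 leukocyte markers had at most 10 counts in every library. The 3 endothelial markers summed to 1.81 to 2.69 CPM in siEF, 3.43 to 4.77 in siNEG and 4.08 to 5.06 in Media. This fall was that of PECAM1 (log2 fold change -1.22 against siNEG). CDH5 went the other way (1.65, adjusted P = 0.0262 by edgeR's test), and VWF had at most 3 counts in a library. The 3 epithelial markers summed to 11.6 to 12.7 CPM in siEF against 1.36 to 2.45 in the 6 other libraries. Most of this was KRT8, at 10.8 CPM on average in siEF and 1.59 in siNEG. CDH1 was also higher in siEF, while EPCAM was above siNEG but near Media (0.406 and 0.399 CPM on average in siEF and Media). The part of these markers in the results on the repair genes was not tested.

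Most of the repair genes were lower after silencing, across every step of both pathways. Of the 41 members, 40 passed the filter on low counts, and 34 of these were lower in siEF than in siNEG at an adjusted P under 0.01, where 31.7% of all genes tested were. FANCF was the 1 member that was higher, a direction taken by 33.6% of all genes tested. With a log2 fold change beyond 1 as a further condition, 22 members were lower, beside 11.7% of all genes. The largest rise of a member was 0.63, so that no member reached the same size upward, where 17.1% of all genes did by edgeR's test, and DESeq2 called none there either. Every siEF library was below every siNEG library for 36 members, against 37.1% of all genes, and above for 3, against 39.8%. The median log2 fold change of the 40 members was -1.12, whereas that of all genes tested was 0.05. DMC1, the recombinase of meiosis, was the member not tested, with 1 to 11 counts in a library.

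**Figure D1:**
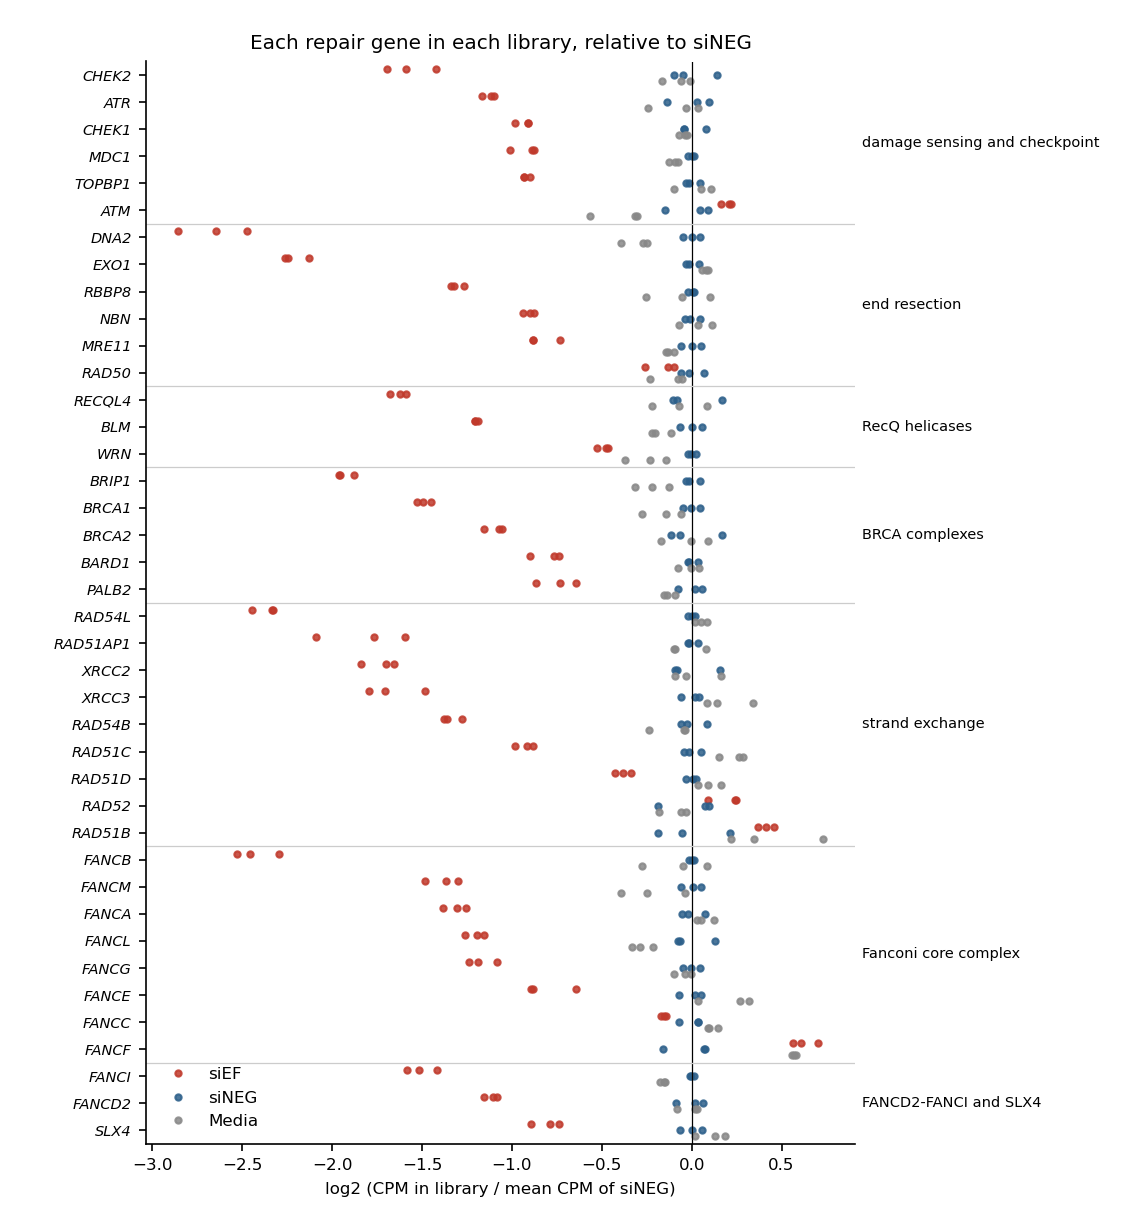
Log2 ratio of the CPM of each of the 40 repair genes tested (rows, by role) in each library to its mean CPM in siNEG, with 1 point per library in siEF (red), siNEG (blue) and Media (grey). The siEF points lie left of all siNEG points for 36 genes and right of them for ATM, FANCF and RAD51B, and the Media points lie near siNEG apart from a few genes such as FANCF.

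The fall was also seen against untransfected cells. Compared with Media, 35 of the 40 members were lower in siEF, beside 32.3% of all genes, and 1 member, ATM, was higher, beside 33.6%. Beyond a log2 fold change of 1, 23 members were lower, beside 12.5% of all genes. The largest rise was that of ATM, 0.59, while 17.4% of all genes rose beyond 1. The median over members was -1.06. Both comparisons use the same siEF libraries, so they are not independent of each other.

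Cell cycle genes moved with the repair genes. All 15 S phase markers were lower in siEF than in siNEG, beside 31.7% of all genes tested, with a median log2 fold change of -2.08. CCNE2, a cyclin of the entry into S phase, fell by 3.20 on the log2 scale. All 15 markers of G2 and mitosis were lower as well, with a median of -1.07, and PLK1, a mitotic kinase, fell by 2.57. In bulk RNA, fewer cells in the phases that use these genes and less of their RNA per cell cannot be told apart. The part of the cell cycle genes in the fall of the repair genes was not tested.

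Because the members moved together, their promoters were searched for short motifs of factors that act at cell cycle and housekeeping promoters. RefSeq promoter windows on GRCh38.p14, from 250 bases before to 50 bases after the transcription start, were found for 35 of the 41 members. They were not found for NBN, WRN, RECQL4, RAD54B, DNA2 and FANCI. The E2F factors control many genes of S phase entry, and 3 forms of their site were searched on both strands, TTTCGCGC, TTTGGCGC and TTTCCCGC. At least 1 form was present in the windows of EXO1, TOPBP1, FANCD2, XRCC2, FANCC and DMC1, that is 6 of 35 members, against 3.3% of the 27305 genes with a window and 2.74% of the 35116 windows. Of these 6, the first 4 were lower in siEF than in siNEG, FANCC was not called and DMC1 was not tested, so 4 of the 28 lower members with a window held the motif.

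The 5 windows of tested members with an E2F match are shown because they set a called gene beside an uncalled one. Each is printed 5′ to 3′ on the strand of the gene, with the match, or its reverse complement where it lies on the other strand, in capitals. The transcription start lies 50 bases before the 3′ end. EXO1 is at chr1:241847954-241848253 (plus strand, the first of its 2 windows), TOPBP1 at chr3:133661892-133662191 (minus strand) and FANCD2 at chr3:10026187-10026486 (plus strand). XRCC2 is at chr7:152676092-152676391 (minus strand) and FANCC at chr9:95317660-95317959 (minus strand, the first of its 2 windows).
EXO1: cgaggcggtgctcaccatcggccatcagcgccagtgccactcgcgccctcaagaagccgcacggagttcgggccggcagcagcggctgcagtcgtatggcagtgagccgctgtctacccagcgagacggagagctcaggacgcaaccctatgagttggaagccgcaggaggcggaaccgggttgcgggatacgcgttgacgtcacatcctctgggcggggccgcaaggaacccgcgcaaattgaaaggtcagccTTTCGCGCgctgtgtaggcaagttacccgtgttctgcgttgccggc
TOPBP1: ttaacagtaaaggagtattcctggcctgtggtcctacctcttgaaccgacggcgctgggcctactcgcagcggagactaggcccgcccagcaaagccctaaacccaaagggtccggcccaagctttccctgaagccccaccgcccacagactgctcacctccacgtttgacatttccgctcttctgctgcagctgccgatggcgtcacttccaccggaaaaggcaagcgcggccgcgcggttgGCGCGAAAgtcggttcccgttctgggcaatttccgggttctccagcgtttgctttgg
FANCD2: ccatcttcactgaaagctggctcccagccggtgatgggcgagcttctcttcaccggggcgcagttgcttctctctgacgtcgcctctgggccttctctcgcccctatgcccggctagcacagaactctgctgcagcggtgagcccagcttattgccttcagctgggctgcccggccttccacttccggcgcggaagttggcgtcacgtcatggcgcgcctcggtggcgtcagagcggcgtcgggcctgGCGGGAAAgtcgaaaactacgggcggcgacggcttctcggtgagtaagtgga
XRCC2: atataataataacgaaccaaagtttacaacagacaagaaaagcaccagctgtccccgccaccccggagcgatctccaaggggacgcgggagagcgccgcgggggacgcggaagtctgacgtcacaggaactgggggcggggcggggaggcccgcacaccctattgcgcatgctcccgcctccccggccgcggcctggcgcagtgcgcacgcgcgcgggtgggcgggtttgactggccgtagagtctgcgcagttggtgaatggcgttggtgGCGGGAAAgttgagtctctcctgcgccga
FANCC: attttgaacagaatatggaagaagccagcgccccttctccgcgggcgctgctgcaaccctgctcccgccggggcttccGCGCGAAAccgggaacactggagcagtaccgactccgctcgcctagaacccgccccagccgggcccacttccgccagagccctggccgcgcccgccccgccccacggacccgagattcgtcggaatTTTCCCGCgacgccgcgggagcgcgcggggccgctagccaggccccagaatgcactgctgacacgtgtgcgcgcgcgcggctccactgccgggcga

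The matches in EXO1, TOPBP1, FANCD2 and XRCC2 lie beside the start. The FANCC window held 2 matches, of different forms, and its gene had the smallest fold change of the 5 (-0.16), while EXO1 with 1 match had the largest (-2.21). The cell cycle homology region TTTGAA was present in 4 of 35 members (ATM, MDC1, BRIP1 and FANCC), against 18.2% of genes. The NRF1 motif GCGCATGC was present in 3 (RBBP8, XRCC2 and SLX4), against 3.68%, and the ETS motif ACCGGAAG in 2 (ATM and SLX4), against 2.62%. The tandem GGAAGGAA, 2 copies of the GGAA unit of the microsatellites that EWS::FLI1 binds, was in the window of none of the 35, against 4.5% of genes. A match describes letters in a window of 300 bases and shows no binding.

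The 6 genes of damage sensing and checkpoint signaling split between the kinases ATM and ATR. ATM, the kinase activated by double-strand breaks (chromosome 11, 108223044 to 108369102), stood at 85.3, 81.9 and 84.8 CPM in siEF, 66.0, 78.0 and 75.8 in siNEG and 49.5, 59.4 and 58.9 in Media. All siEF values were above all siNEG values, which in turn were above all Media values. Against siNEG the log2 fold change was 0.20 (SE 0.07), which did not pass at an adjusted P of 0.022, while against Media it was 0.59 (SE 0.07, adjusted P = 1.89e-06). ATR, the kinase that answers to single-stranded DNA at stalled forks (chromosome 3, 142449007 to 142578733), stood at 30.0, 29.6 and 28.6 CPM in siEF, 58.3, 65.4 and 68.7 in siNEG and 54.2, 65.6 and 62.6 in Media. The siEF values of ATR were all below those of both controls, which overlapped each other, and the log2 fold change against siNEG was -1.13 (SE 0.08, adjusted P = 1.08e-09).

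The kinases downstream of both were lower in siEF. CHEK1, the effector kinase of ATR, stood at 44.3, 42.1 and 44.2 CPM in siEF, 80.8, 88.2 and 80.9 in siNEG and 81.8, 79.2 and 81.3 in Media. Its siEF values did not reach any control value, and its log2 fold change was -0.94 (SE 0.05, adjusted P = 9.87e-11). CHEK2, the effector kinase of ATM, fell by 1.57 on the log2 scale, to 33.6% of its level in siNEG. TOPBP1, which activates ATR, and MDC1, the adaptor that binds phosphorylated histone H2AX at breaks, each fell by 0.92, to 52.8% of their siNEG level. In exons annotated by GENCODE, 18.2% of CHEK1 and 10.1% of MDC1 lie opposite a gene on the other strand, and the strand setting of the counting was not given in the sources used here.

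The genes of end resection ranged from the largest fall of any member to no call. DNA2, a nuclease and helicase that extends the resected strand (chromosome 10, 68414064 to 68472121), stood at 8.53, 9.60 and 7.37 CPM in siEF, 51.5, 53.4 and 55.0 in siNEG and 40.6, 44.9 and 44.2 in Media. The siEF libraries held 15.8% of the siNEG level, or -2.66 on the log2 scale (SE 0.08, adjusted P = 4.9e-14), and the siNEG and Media values did not overlap either. EXO1, the exonuclease that works beside DNA2 (chromosome 1, 241847967 to 241895148), stood at 22.8, 24.8 and 22.5 CPM in siEF, 107, 111 and 106 in siNEG and 113, 114 and 115 in Media. It was at 21.5% of siNEG, with siEF far below both controls (log2 fold change -2.21, SE 0.05, adjusted P = 2.6e-15).

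RBBP8, which encodes the CtIP cofactor that starts resection, fell by 1.31 on the log2 scale. The MRN complex, which binds the break first, moved unevenly. Its nuclease gene MRE11 fell by 0.83 and NBN, the subunit that recruits ATM, by 0.90, whereas RAD50, its ATPase, was not called, at -0.16 on that scale (SE 0.06, adjusted P = 0.0236). RAD50 stood at 93.9, 84.0 and 92.0 CPM in siEF and 99.7, 96.6 and 105 in siNEG, so the groups were close but did not overlap. A readthrough gene (ENSG00000283782) shares 91.0% of the exon bases of RAD50 on the same strand and held 0 to 317 counts in a library, so the estimated counts of RAD50 depend on how reads were split between them. Summed over both genes, the level was 97.5 ± 2.94 CPM (SD, n = 3) in siEF and 102 ± 2.79 in siNEG, a log2 ratio of means of -0.07.

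All 3 RecQ helicases were lower in siEF, beside 31.7% of all genes tested. RECQL4, mutated in Rothmund-Thomson syndrome, fell by 1.63 on the log2 scale, to 32.4% of its siNEG level, and BLM, the Bloom syndrome helicase that dissolves joint molecules, fell by 1.20, to 43.6%. WRN, the Werner syndrome helicase and exonuclease, fell by 0.49, to 71.3%. Against Media, WRN fell by 0.24 (adjusted P = 0.00252) and FANCC, called in that comparison alone, by 0.27.

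The BRCA complexes were lower throughout, and all 5 genes passed the test, beside 31.7% of all genes tested. BRCA1, part of the ubiquitin ligase that promotes resection (chromosome 17, 43044295 to 43170245), stood at 49.5, 52.2 and 50.6 CPM in siEF, 138, 147 and 142 in siNEG and 118, 129 and 137 in Media. The siEF values were less than any control value by a wide margin, at 35.6% of siNEG (log2 fold change -1.49, SE 0.06, adjusted P = 5.45e-13). BARD1, its obligate partner, fell by 0.79, and PALB2, which bridges BRCA1 and BRCA2, by 0.74, the smallest changes of the group.

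BRCA2, which loads the recombinase on single-stranded DNA (chromosome 13, 32315086 to 32400268), stood at 7.59, 7.49 and 7.09 CPM in siEF, 15.1, 17.7 and 14.6 in siNEG and 14.0, 16.8 and 15.7 in Media. No siEF library reached a control library, and the log2 fold change was -1.10 (SE 0.10, adjusted P = 4.82e-08). BRIP1, the helicase that binds BRCA1 (chromosome 17, 61679139 to 61863559), stood at 15.7, 15.8 and 16.7 CPM in siEF, 59.9, 63.2 and 60.7 in siNEG and 49.2, 52.6 and 56.1 in Media. It had the largest fall of the group, to 26.2% of siNEG (log2 fold change -1.93, SE 0.07, adjusted P = 1.37e-13).

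Among the genes of strand exchange, 7 of the 9 tested were lower in siEF, beside 31.7% of all genes tested. RAD54L, the translocase that remodels the recombinase filament (chromosome 1, 46246461 to 46278480), stood at 14.2, 14.2 and 13.1 CPM in siEF, 71.5, 72.4 and 70.6 in siNEG and 75.9, 74.1 and 72.5 in Media. It was at 19.3% of siNEG, well apart from both controls (log2 fold change -2.37, SE 0.06, adjusted P = 3.33e-15). LRRC41, a gene on the other strand that covers 26.2% of its exons, rose by 0.55. RAD51AP1, which stimulates strand exchange (chromosome 12, 4538798 to 4560047), stood at 14.0, 12.4 and 9.91 CPM in siEF, 43.2, 41.5 and 41.8 in siNEG and 39.5, 39.4 and 44.6 in Media. Its siEF values spread more than those of its neighbours and were still all below the controls, at 28.6% of siNEG (log2 fold change -1.81, SE 0.10, adjusted P = 3.5e-11).

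The 5 paralogs of the strand-exchange recombinase, which form the BCDX2 and CX3 complexes, did not move alike. XRCC2 (chromosome 7, 152644776 to 152676193) stood at 12.5, 12.1 and 11 CPM in siEF, 43.9, 36.9 and 37.2 in siNEG and 37.0, 38.6 and 44.1 in Media. XRCC3 (chromosome 14, 103697609 to 103715504) stood at 5.06, 4.75 and 5.90 CPM in siEF, 16.7, 15.8 and 17.0 in siNEG and 20.9, 17.5 and 18.2 in Media. Both were lower in every siEF library than in any control library, with log2 fold changes of -1.73 (SE 0.09, adjusted P = 3.41e-11) and -1.65 (SE 0.10, adjusted P = 2.79e-10). KLC1 lies opposite 34.2% of the exon bases of XRCC3 and had a log2 fold change of 0.15. RAD51C, which belongs to both complexes, fell by 0.93, and RAD51D by 0.38. RAD51B was not called, at 0.41 on that scale (SE 0.17, adjusted P = 0.0398) at 4.28 ± 0.126 CPM (SD, n = 3) in siEF, 3.21 ± 0.465 in siNEG and 4.38 ± 0.838 in Media. It is the longest gene of the set, with 910440 bp, and the least abundant member tested in siNEG CPM.

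RAD52, which anneals single strands, was not called either, at 0.20 (SE 0.11, adjusted P = 0.109). RAD54B, a relative of RAD54L, fell by 1.34. FSBP shares 65.5% of the exon bases of RAD54B on the same strand and rose by 0.33 on its own. The sum of both genes was 33.8 ± 1.92 CPM (SD, n = 3) in siEF and 52.5 ± 2.25 in siNEG, a log2 ratio of means of -0.64, so the size of the fall of RAD54B depends on how reads were divided between the pair.

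The Fanconi core complex held both a fall of more than 4-fold and the single rise. FANCB (chromosome X, 14690388 to 14873255) stood at 3.0, 2.55 and 2.67 CPM in siEF, 14.5, 14.8 and 14.7 in siNEG and 12.1, 14.2 and 15.6 in Media. The siEF level was 18.7% of siNEG and below both controls (log2 fold change -2.42, SE 0.12, adjusted P = 1.26e-11). FANCL, the ubiquitin ligase subunit that binds FANCB, fell by 1.20. FANCA and FANCG, which bind each other, fell by 1.31 and 1.17, and FANCM, the translocase that anchors the complex to DNA, by 1.39. Genes on the other strand cover 27.4% of the exon bases of FANCA and 27.3% of those of FANCL.

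The subcomplex of FANCC, FANCE and FANCF behaved differently from gene to gene. FANCE fell by 0.81, FANCC was not called (log2 fold change -0.16, SE 0.06, adjusted P = 0.0272) and FANCF was higher. FANCF, a gene with a single exon of 3291 bp (chromosome 11, 22622533 to 22625823), stood at 17.7, 17.1 and 18.9 CPM in siEF, 12.2, 12.2 and 10.4 in siNEG and 17.2, 17.1 and 17.4 in Media. The siEF and Media values of FANCF lay in the same range, and the siNEG values were below both. Its log2 fold change was 0.63 against siNEG (SE 0.08, adjusted P = 2.82e-06) and 0.06 against Media (SE 0.08, adjusted P = 0.504).

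FANCD2 and FANCI, the pair that the core complex ubiquitinates, were both lower. FANCD2 (chromosome 3, 10026370 to 10101932) stood at 23.2, 23.7 and 22.5 CPM in siEF, 52.3, 50.8 and 47.1 in siNEG and 51.1, 50.7 and 47.3 in Media. The siEF values were below all others and the controls overlapped (log2 fold change -1.12, SE 0.06, adjusted P = 7.63e-11). FANCI fell by 1.51, to 35.2% of siNEG, and SLX4, the scaffold of the nucleases that unhook a crosslink, by 0.81, to 57.1%.

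**Figure D2:**
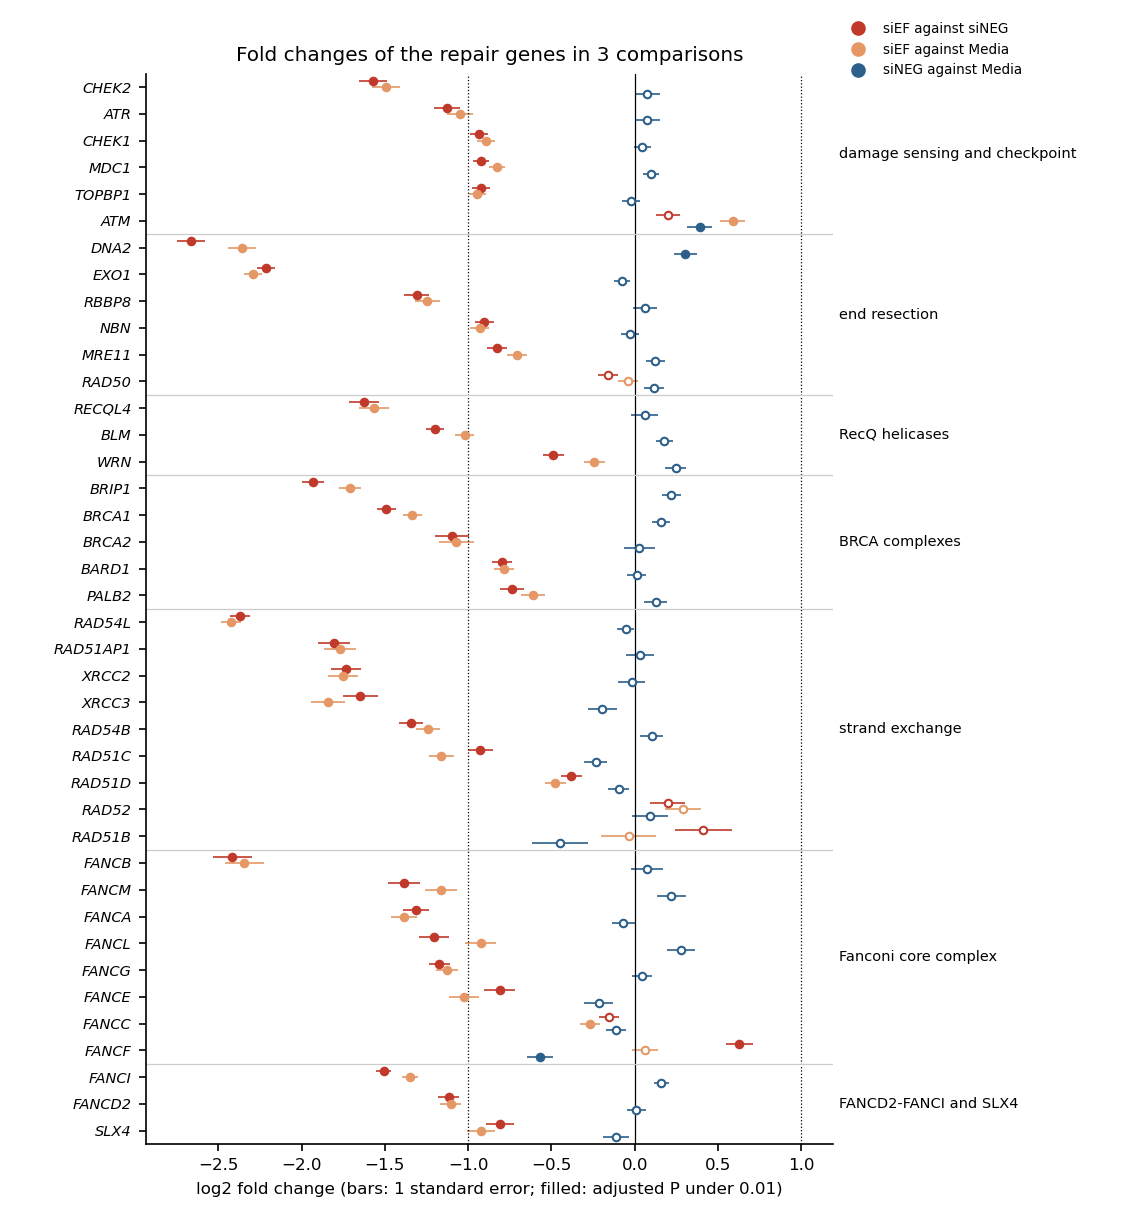
Log2 fold change of each of the 40 repair genes tested in siEF against siNEG (red), siEF against Media (orange) and siNEG against Media (blue), with bars of 1 standard error and filled symbols at an adjusted P under 0.01. Most red and orange points lie together below 0, ATM, FANCC and FANCF change call and RAD51B changes side between the controls, and the blue points are open for all but ATM, DNA2 and FANCF.

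Most of the set was not called between siNEG and Media, 37 of 40 members, beside 14518 of the 16093 genes tested. In this comparison the effects of transfection and of the nonspecific siRNA cannot be told apart. Between siNEG and Media, FANCF was the 1 member lower, beside 5.96% of all genes, and ATM and DNA2 were the 2 members higher, beside 3.83%. The median over the 40 members was 0.05. FANCF changed by -0.57 on the log2 scale (SE 0.08, adjusted P = 0.000115), ATM by 0.39 (SE 0.07, adjusted P = 0.00144) and DNA2 by 0.30 (SE 0.07, adjusted P = 0.00598). The call of DNA2 did not pass in 5 of the 9 fits without a library, those without siEF replicate 1, siNEG replicates 2 or 3, or Media replicates 1 or 2, and that of ATM did not pass without siNEG replicate 2. The FANCF call passed in all 16 alternatives, with an adjusted P of at most 0.00102.

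The ratio of transcripts was then compared for subunits that act as a complex and for the ATM and ATR kinases and their effectors, on a length-scaled level, the count per kilobase of exon brought to the same total in every library as in TPM. BRCA1 transcripts were 2.06 times as abundant as those of BARD1 in siNEG and 1.27 times in siEF (log2 ratios 1.04 ± 0.07 and 0.35 ± 0.12, SD, n = 3). MRE11 and NBN both lost ground to RAD50: the log2 ratio of MRE11 to RAD50 was -0.62 ± 0.05 in siNEG and -1.29 ± 0.07 in siEF, and that of NBN to RAD50 was 0.43 ± 0.09 and -0.31 ± 0.10. In these 3 pairs the siEF libraries were below all 6 others. The ratio of ATM to ATR rose, from a log2 ratio of -0.47 ± 0.06 in siNEG and -0.78 ± 0.03 in Media to 0.85 ± 0.05 in siEF. Its change of sign depends on the exon lengths used. In CPM, which is not scaled by length, ATM was above ATR in siNEG already (73.3 and 64.1 on average) as in siEF (84.0 and 29.4). CHEK1 to CHEK2 went from -0.18 ± 0.16 to 0.45 ± 0.18, and FANCD2 to FANCI from -2.26 ± 0.08 to -1.87 ± 0.05, with all siEF libraries above the 6 others in these 3 pairs. These ratios were not tested, and those to RAD50 depend on how reads were split between RAD50 and its readthrough gene.

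**Figure D3:**
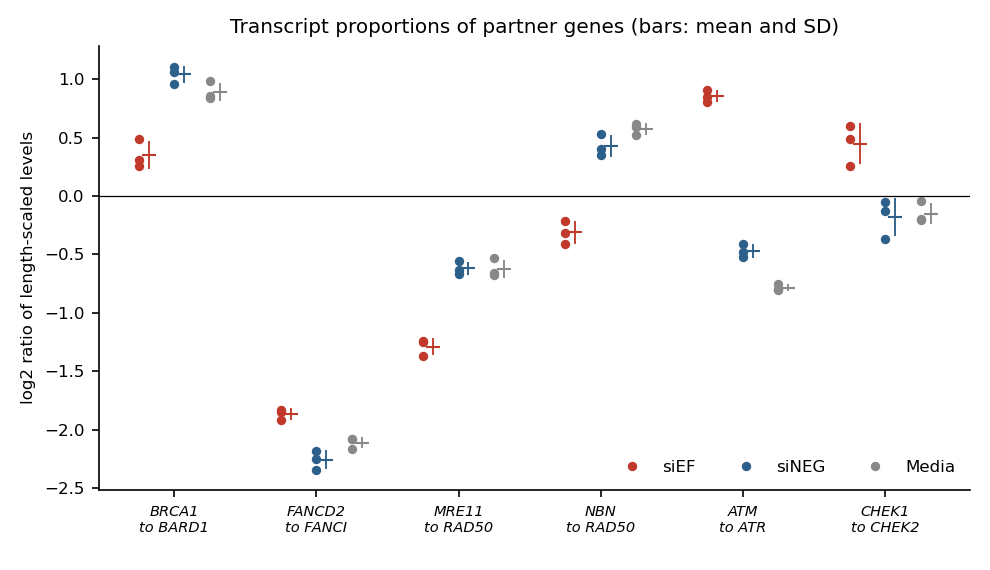
Log2 ratio of the length-scaled levels of 6 pairs of partner genes, with 1 point per library in siEF (red), siNEG (blue) and Media (grey) and bars for the mean and SD of 3 libraries. The siEF points lie outside the range of the 6 other libraries in each pair, and the widest gap is that of ATM to ATR, with 0.85 in siEF against -0.47 in siNEG.

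In the same length-scaled unit, the 41 genes together came to 462 ± 9.12 (SD, n = 3) in siEF, 1086 ± 38.4 in siNEG and 1024 ± 47.1 in Media. FANCI led the order in each group, with 36.5 ± 2.32 in siEF, 107 ± 4.62 in siNEG and 93.3 ± 2.26 in Media. BRCA2 had the lowest level of the tested genes in each, with 1.36 ± 0.06, 3.01 ± 0.38 and 2.88 ± 0.33. EXO1 was at rank 2 in siNEG, with 71.4 ± 3.67, and at rank 11 in siEF, with 15.0 ± 0.863. RAD50 went the other way, from rank 16 with 27.7 ± 1.72 to rank 3 with 24.0 ± 1.34, its level having changed little while those around it were lower. The RAD50 level depends on how reads were split with its readthrough gene. Many neighbours in these orders cannot be separated: of the 40 neighbouring pairs, the library values overlapped in 28 in siEF, 29 in siNEG and 31 in Media. In siNEG, for example, RBBP8 (53.1 ± 1.84), RAD54L (52.9 ± 2.05), TOPBP1 (52.6 ± 3.03) and CHEK2 (52.0 ± 2.75) stood within their spread.

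**Figure D4:**
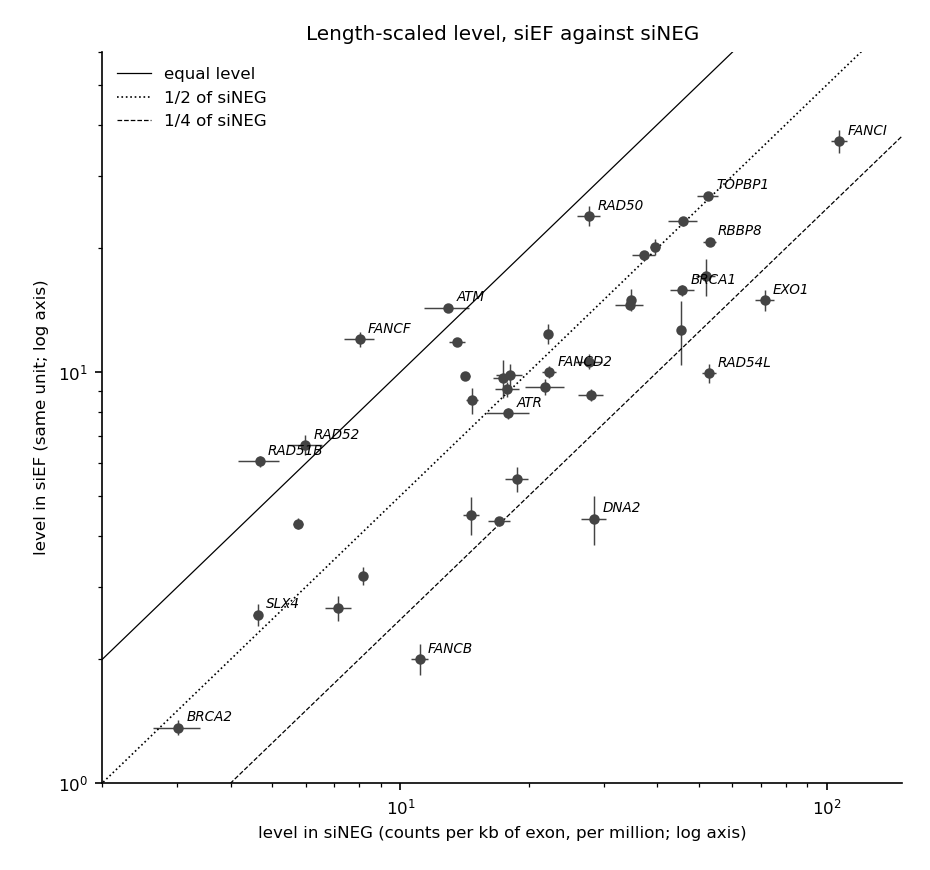
Length-scaled level of each of the 40 repair genes tested in siEF (vertical) against siNEG (horizontal), both on log axes, with points for the mean and bars for the SD of 3 libraries. Most genes lie near or below the line of 1/2 of the siNEG level, RAD54L, DNA2, EXO1 and FANCB lie below the line of 1/4, and ATM, FANCF, RAD51B and RAD52 lie above equality.

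Members with a higher level in the control tended to have the larger falls. Across the 40 genes, which share the same libraries and are not independent, Spearman's rho between the log2 fold change and the length-scaled level in siNEG was -0.47, and both quantities use the siNEG libraries. With gene length it was 0.11. The members are long genes, with a median of 73317 bp from start to end beside 27550 bp for the 19901 protein-coding genes in the table.

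Other genes of the same pathways were lower in most cases as well, where 31.7% of all genes tested were lower and 33.6% higher. Of 36 other genes of recombination and the Fanconi pathway, 25 were lower and 5 higher in siEF than in siNEG, with a median log2 fold change of -0.82. UBE2T, the ubiquitin-conjugating enzyme that works with FANCL, fell by 2.48, and ABRAXAS1, a scaffold of a BRCA1 complex, rose by 1.09. Of 17 other checkpoint genes, 11 were lower and 2 higher, with a median of -1.04. CLSPN, the mediator between ATR and CHEK1, fell by 2.91, and WEE1, the kinase that restrains entry into mitosis, rose by 0.82.

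The other repair routes were mixed. In this comparison 31.7% of all genes tested were lower and 33.6% higher. The shares higher in mismatch repair (28.6%) and in nucleotide excision repair (30%) were near that of all genes. Of 14 genes of end joining, 8 were lower and 2 higher, with a median of -0.38. Within that list POLQ, the polymerase of theta-mediated joining, fell by 1.47, and POLL, a gap-filling polymerase, rose by 1.39. Of 7 mismatch repair genes, 4 were lower and 2 higher, with a median of -0.80. MSH6, a mismatch recognition subunit, fell by 1.12, and PMS2, a nuclease subunit, rose by 0.33. Of 10 genes of nucleotide excision repair, 5 were lower and 3 higher, with a median of -0.13. ERCC8 and ERCC6, which act in repair coupled to transcription, lay at its ends, with a fall of 0.78 and a rise of 1.17. The lists were not compared with each other by a test.

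**Figure D5:**
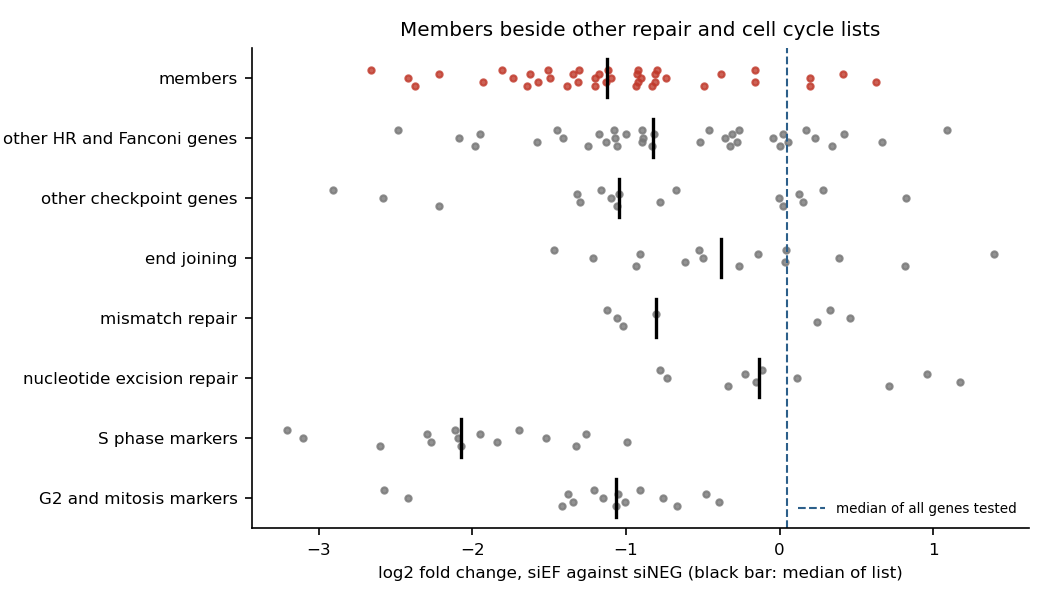
Log2 fold change in siEF against siNEG of each gene tested in the set (red) and in 7 other lists (grey), with a black bar at the median of each list and a dashed line at the median of all genes tested, 0.05. The medians run from -2.08 in the S phase markers through -1.12 in the set to -0.13 in nucleotide excision repair, and the S phase and mitosis points all lie below 0.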

How the data were processed

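Polyadenylated RNA of TC32 cells was sequenced in 9 libraries, 3 each of siEF, siNEG and Media, grouped by the sample labels, which all name a small RNA library kit. The authors deposited expected counts per gene, estimated with RSEM from reads mapped to hg38 with STAR according to the methods, unscaled and not pooled. The processing notes name cutadapt 2.10 and DESeq2 1.32.0. The annotation release and strand setting are not given in the sources used here. The table pairs each identifier with a symbol, and 99.5% of identifiers were in GENCODE release 44, from which positions and exon lengths on GRCh38 were taken. No file column was left out, no columns were identical, and replicates differed by more than counting noise.

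After rounding, edgeR 4.0.16 (R 4.3.3) was used to drop genes of low counts (filterByExpr, which left 16093), to scale libraries by TMM and to run its quasi-likelihood test, with a mean for each group and all 9 libraries together, with Benjamini-Hochberg adjustment over all genes tested. Calls were made at an adjusted P under 0.01, and again with the added condition of a log2 fold change beyond 1. The SE was taken as the absolute log2 fold change over the root of F. In 2 simulated sets of counts with 2-fold changes in siEF, it called 152 of 198 changed genes (100 of 100 above the median abundance, 52 of 98 below it, 2 false calls among 15743 genes) and 136 of 192 (92 of 92 above, 44 of 100 below, 3 false calls among 15721 genes). A mark on the number recovered, which the second set missed, was replaced by marks on sign, size and false calls. The length-scaled level is the count per kilobase of exon of the GENCODE canonical transcript, divided by its sum over all genes of the library as in TPM. Summing overlapping genes was chosen after the values were seen.

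The members and the gene lists were chosen with earlier results of these data known. Values per library were given for the 8 members with the largest falls beyond 1, for BRCA1, BRCA2, FANCD2, ATM, ATR and CHEK1, and for members called between siNEG and Media. Of each other list, the called genes with the largest fall and rise were named. FANCI and RAD50 were described further after their values were seen. For 1 gene that the paper names, no result is given. Alternatives were an adjusted P under 0.05, a replicate block, each library left out, a fit of the 6 compared libraries alone, a minimum of 10 counts per library, no filter at all, upper quartile or RLE scaling, and DESeq2 1.42.0. P values measure the spread between replicates of 1 cell line.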

Additional observations from a re-analysis of the deposited data

How the results depend on the processing

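The 22 members lower beyond a log2 fold change of 1 in siEF against siNEG (11.7% of all genes in the main fit) were counted as 22 under every alternative run. The number lower at any size lay between 34 and 36. Of all genes, between 19% (no filter) and 35.5% (adjusted P under 0.05) were lower in these alternatives. The number higher was 1 (33.6% of all genes), and 3 at an adjusted P under 0.05 (38.2%), 2 with upper quartile scaling (37.5%) and 2 in the fit of only the 6 libraries compared (34.7%). It was 1 to 2 when each library was left out (30.1% to 33.5%), with 2 without Media replicate 1 (33.5%), where ATM joined FANCF. The median log2 fold change of the members, -1.12, was -1.03 with upper quartile scaling, -1.17 with no filter on low counts and -1.17 to -1.10 when each library was left out. Against Media, the number lower lay between 33 and 35, beside 19.3% (no filter) to 36.1% (adjusted P under 0.05) of all genes. The number lower beyond 1, which was 23 (12.5% of all genes in the main fit), lay between 19 and 23. The share of all genes beyond 1 is given for the main fit only, so these counts cannot be set against it under the alternatives. The number higher was 2 at an adjusted P under 0.05 (38% of all genes) and 2 with upper quartile scaling (37.7%). Between siNEG and Media, 2 members were lower at an adjusted P under 0.05 (10.2% of all genes). The number higher was 7 at an adjusted P under 0.05 (7.61% of all genes), 4 with no filter (3.15%), 5 with at least 10 counts in every library (5.45%) and 5 with DESeq2 (6.09%). It was 0 to 3 when each library was left out (2.01% to 3.62% of all genes). It was 0 without siNEG replicate 2 (2.01%) and 1 each without siEF replicate 1 (3.14%), siNEG replicate 3 (2.2%) and Media replicate 1 (2.73%). The cause of these shifts was not tested. Of the fold changes of single genes in siEF against siNEG, none changed sign, and ATM and RAD50 alone changed side of an adjusted P of 0.01. By edgeR's test, RAD50 passed with no filter (adjusted P = 0.00142), with only 6 libraries (0.00871) and without Media replicate 1 (0.00672). With the cutoff itself moved to 0.05, FANCC and RAD51B were called as well as ATM and RAD50. Same-numbered libraries did not deviate together (9 correlations, from -0.0875 to 0.0482), and pairs with unlike numbers reached 0.081. These values show no strong effect shared by number, but cannot exclude that the numbers mark shared handling. With the replicate number as a block, 34 members were lower (31.5% of all genes) and 1 higher (33.1%) in siEF against siNEG, with a median of -1.12. RAD51B had 88 to 168 counts in a library, and the part of depth in its lack of a call was not tested, while DMC1, with 1 to 11, was removed by the filter.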
